A study of Mus musculus with 2 samples.

Results

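A large share of the probes on this mouse expression array carry no gene name and are identified only by a stretch of the genome. The members described here are the autosomal non-control probes whose systematic name is such a stretch, an interval of the mm9 build with a strand suffix F or R. They number 15617 of the 55678 non-control probes (28.0%), and they lie in 3390 intervals on 19 autosomes. RNA came from P3 primary keratinocytes; keratinocytes form the layers of the epidermis. The control sample is labelled Rac3-KO, and its array is called the control array here. The other sample is labelled Rac1Rac3-DKO, a knockout of Rac1 on top of the Rac3 knockout that both samples share by label, and its array is called the DKO-labelled array. Rac1 and Rac3 are small GTPases that relay signals to the actin cytoskeleton. What P3 stands for is not given. Strain, sex and age, and the promoter or cell type behind the Rac1 deletion, are not stated in the labels. Each genotype was hybridised to 1 array, so no value below has a replicate check, no test between genotypes was run, and any feature of the cell preparation cannot be told apart from genotype.

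Long intergenic noncoding RNAs are transcripts that lie between protein-coding genes and hold no long open reading frame. Many of the regions that give rise to them were first proposed from chromatin marks of active promoters and transcribed bodies, which show where transcription runs but not on which strand. Such transcripts are known to be less abundant and more restricted to particular tissues than messenger RNAs, and a few, such as Neat1 and Malat1, are abundant nuclear RNAs of most cells. The files do not state that the intervals are noncoding. What an mm9 gene annotation holds at each interval was not examined here, so the intervals are named only by their coordinates, and no sequence is shown for them.

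The intervals ran from 62 to 7128487 bases, with a median of 7451. Probes were placed on both strands of 1042 intervals and on 1 strand of 2345, and the first kind was longer, with a median length of 17751 against 2176 bases. The F suffix, read here as the forward strand, belonged to 7890 probes and the R suffix, read as the reverse strand, to 7714. The remaining 13 probes, in 3 intervals, had no suffix. An interval strand held from 1 to 10 probes with a median of 3, and each probe was spotted once. Many intervals overlap: merged where they share at least 1 base, they formed 2126 loci, of which 751 held several intervals and the fullest held 14. Probes of overlapping intervals can therefore read the same transcript and are not independent.

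A level is the log2 of the processed signal minus the array's own 75th percentile, which was 705 units on the control array and 354 on the DKO-labelled array. A difference is the level on the DKO-labelled array minus that on the control array. The smallest signal that the software called well above background corresponded to a level of -4.91 on the control array and -4.14 on the DKO-labelled array, so a dim transcript was harder to detect on the latter. Of 308 negative control spots, 9 (2.92%) and 3 (0.974%) were called well above background on the control and DKO-labelled arrays. The Rac1 probe of highest level stood at 4.82 and 5.10, a difference of 0.28, and the second Rac1 probe had a difference of -0.12, so neither showed the labelled loss of Rac1. Rac3, which both samples lack by label, gave signals of 99.8 on the control array and 59.1 on the DKO-labelled array, both well above background. Whether these probes lie in the deleted parts of the genes is not known here, which is why the word labelled is kept. Of 14 keratinocyte markers, all measured, 12 were lower by 2-fold or more on the DKO-labelled array with a median difference of -1.85 and a summed level of 341 against 1167, each level counted as a multiple of the array's 75th percentile. Of 13 skeletal muscle markers, 12 were higher by 2-fold or more, with a median of 2.59 and a summed level of 2100 against 393. Among all measured probes of the array 5.24% were lower and 8.75% higher by 2-fold or more. Each marker is read by its probe of highest mean level. For Trp63, a keratinocyte marker counted as lower at -1.80, the other measured probe had a difference of 0.43. The median was 0.77 for 10 fibroblast markers, 0.99 for 9 leukocyte, 0.60 for 8 endothelial, 0.57 for 7 adipocyte and 0.72 for 3 erythroid markers. None of these markers was below background on both arrays. The part of these other cell types in any interval result below was not tested.

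Most interval probes gave no signal above background. On the control array 5620 (36.0%) were well above background and on the DKO-labelled array 4861 (31.1%). Protein-coding probes served for comparison, 24833 probes of 18778 autosomal genes, of which 74.9% and 71.5% were well above background. Probes of named long noncoding RNA genes, 426 probes of 373 genes, lay between the 2 sets with 49.5% and 42.7%. Interval probes were above background on both arrays in 4522 cases (29.0%), on the control array only in 1098, on the DKO-labelled array only in 339, and on neither in 9658 (61.8%). Per interval strand, at least 1 probe was above background for 2734 of 4432 on the control array and for 2462 on the DKO-labelled array. Where an interval probe was measured on both arrays it was dim: the median level was -2.29 on the control array, against 0.61 for coding and -1.83 for named noncoding probes. These set medians describe many probes at once; probes differ in how well they hybridise, so a level is not an abundance.

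**Figure D1:**
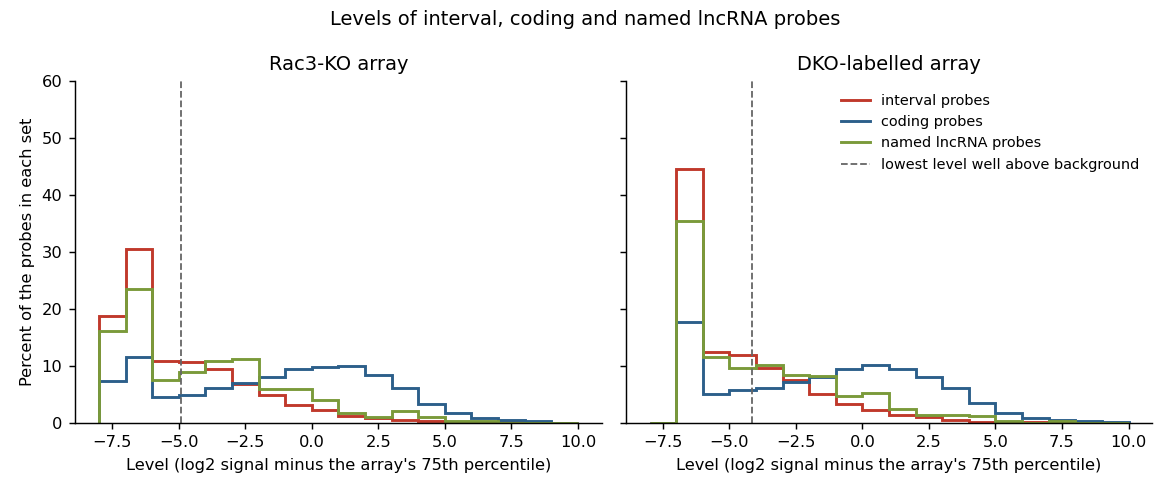
Distribution of levels (log2 signal minus the array's 75th percentile, x axis) as the percent of the probes of each set (y axis), for interval, coding and named long noncoding RNA (lncRNA) probes on each of the 2 arrays. The dashed line marks the lowest level well above background, -4.91 and -4.14; most interval probes lie to its left and coding probes spread mainly between -2 and 4.

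Detection varied with chromosome and with interval length to a similar extent. On the control array the share above background ran from 29.3% on chromosome 9 to 41.8% on chromosome 17. By length it was 31.9% in intervals of at most 1 kb, 45.7% between 1 and 5 kb, 35.5% between 5 and 20 kb, and 35.9% above 20 kb. F probes were above background in 33.9% and 29.3% of cases on the control and DKO-labelled arrays, and R probes in 38.1% and 33.0%. Intervals with probes on a single strand and those with both gave close shares, 36.9% and 35.4% on the control array.

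Among the 4522 interval probes measured on both arrays, differences leaned toward the DKO-labelled array, relative to the 75th percentile. The median difference was 0.34, with quartiles of -0.10 and 0.74, and 3154 probes (69.7%) lay above 0; with scaling to the 8 spike-in RNAs, which moves every difference by -2.06, the median was -1.72. At least 2-fold higher were 577 (12.8%), where 8.75% of all measured probes of the array were (2499 of 28566). At least 2-fold lower were 145 (3.21%), against 5.24% of all measured probes (1497 of 28566). Thus 79.9% of the interval probes that were at least 2-fold apart were higher; that share was 65.4% after loess normalization, which removes a trend with level, and 0.0495% with the spike-ins, under which 2 were higher and 4035 lower. The median of all measured probes moved from 0.06 to -2.00 under the spike-ins, so the directions below are relative to the array as a whole. The software's own error of a single difference had a median of 0.23 on the log2 scale; it covers the scan and not the spread between cultures or animals. Each of the 577 and 145 differences exceeded the 95% multiple of its own error. This condition removed no probe, so it adds nothing to the 2-fold rule.

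**Figure D2:**
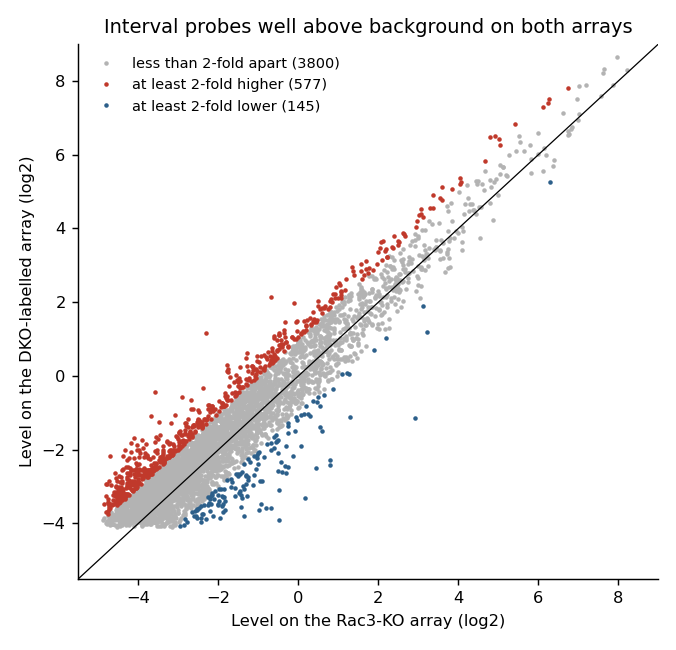
Level of each of the 4522 interval probes measured on both arrays, Rac3-KO on the x axis and DKO-labelled on the y axis, both log2 relative to the array's 75th percentile. Of these, 577 are higher by 2-fold or more and 145 lower by 2-fold or more on the DKO-labelled array under this scaling; with spike-in scaling the counts are 2 and 4035. The diagonal marks equal levels.

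Interval probes are dimmer than coding probes, so the comparison was repeated within bins of mean level 1 log2 unit wide. Coding probes weighted to the level distribution of the interval probes had a median difference of 0.09, with 9.49% higher by 2-fold or more and 6.95% lower, against 0.33 as the interval median over the same bins. The gap was 0.24, and a constant scaling moves both medians alike. It was small where the probes were dimmest. In the bin from -5 to -4 the medians were 0.64 and 0.62, and in that from -4 to -3 they were 0.38 and 0.26. It was wider in the middle of the range, with 0.28 against -0.06 from -1 to 0 and 0.41 against -0.07 from 1 to 2. In the bin from 6 to 7 the order was reversed, with 0.05 over 19 interval probes against 0.11 for coding probes. Above a mean level of 3 only 159 interval probes were measured, of which 33 (20.8%) were higher by 2-fold or more and 1 lower. In the same bins the higher share of coding probes was between 2.74% and 9.57%. Spike-in scaling left 2 interval probes of any level higher by 2-fold or more. Named noncoding RNA probes lay closer to the intervals in the weighted comparison, though not in every bin. In the bin from -4 to -3 their median was 0.11, against 0.38 for interval and 0.26 for coding probes. No bin above a mean level of 1 held more than 8 of them. Weighted in the same way, the named noncoding RNA probes had a median of 0.25, a gap of 0.08, from 174 measured probes. Of these, 10.3% were higher by 2-fold or more and 3.45% lower.

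**Figure D3:**
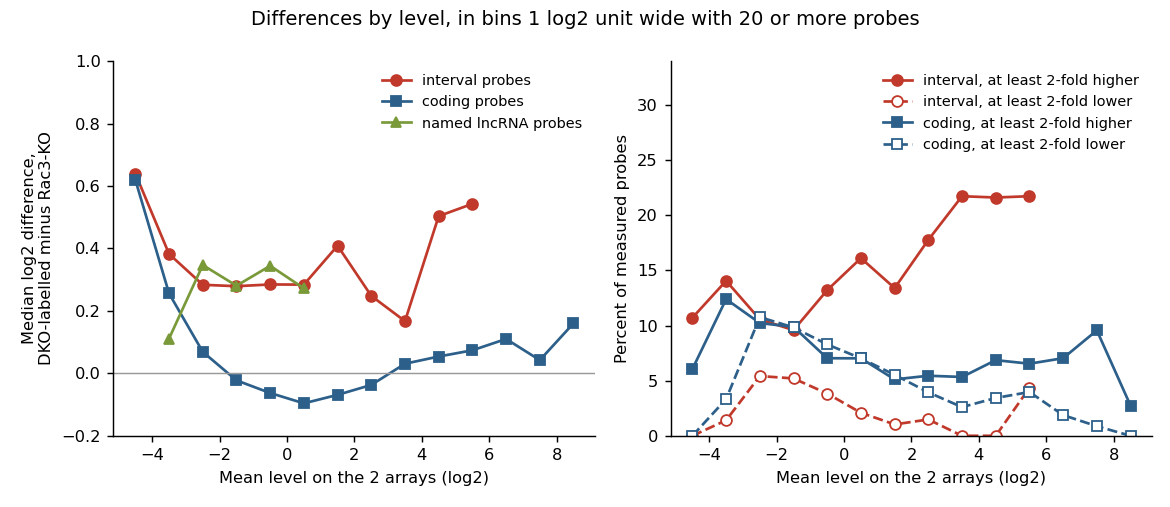
Left, median log2 difference (DKO-labelled minus Rac3-KO, y axis) by mean level on the 2 arrays (x axis, bins of 1 log2 unit with 20 or more probes) for interval, coding and named lncRNA probes; right, the percent of interval and coding probes higher by 2-fold or more or lower in the same bins. The interval medians lie above the coding medians in every bin where both are drawn, under scaling to the 75th percentile. They run from 0.64 against 0.62 in the lowest such bin to 0.54 against 0.07 between 5 and 6. Bins with fewer than 20 interval probes show no interval point.

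The sign of the median difference held over chromosomes, strands and lengths, always relative to the 75th percentile and not with the spike-ins. The 2-fold shares did not keep to 1 side of the array's in every class. All 19 autosomes had a median difference above 0, from 0.19 on chromosome 14 to 0.50 on chromosome 15. On 17 of them the share higher by 2-fold or more was above the array's 8.75%, with the highest on chromosome 12, 19.8% of 242 measured probes, and the lowest on chromosome 17, 8.31% of 313. On 1 of them, chromosome 1, the share lower by 2-fold or more was above 5.24%. F probes had a median difference of 0.39 and R probes of 0.30. By length, from the shortest class to the longest, the medians were 0.25, 0.24, 0.35 and 0.38. In intervals of at most 1 kb 7.05% of probes were higher by 2-fold or more, below the array's 8.75%. In the longer classes the share was 12.2%, 13.2% and, above 20 kb, 14.5%. The lower share was 3.36% in the shortest class, 5.50% between 1 and 5 kb, which is above the array's 5.24%, and 3.004% and 2.67% in the longer classes.

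Several probes of an interval strand give a check within the arrays, although they share the same RNA. Among 1117 interval strands with at least 2 measured probes, the SD between their differences had a median of 0.25. The root mean square of these SDs was 0.46. The median difference of all measured interval probes was 0.34, so SDs of this size do not by themselves show that probes of an interval agreed. With at least 3 measured probes there were 609 interval strands; all probes lay above 0 in 245, all below in 115, and the signs were mixed in 249. Every measured probe was higher by 2-fold or more in 20 (3.28%) and lower by 2-fold or more in 4 (0.657%). Of 537 coding genes with at least 3 measured probes the corresponding numbers were 7 (1.30%) and 2 (0.372%). All probes lay above 0 in 159 of these genes and all below in 138. The 20 intervals belonged to 17 loci on 10 chromosomes, 9 on the F strand and 11 on the R strand, with medians from 1.12 to 2.07. After normexp background correction, which draws dim signals together, 8 of these 20 and none of the 4 still had every measured probe at least 2-fold apart.

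The highest median belonged to the R strand of chr7:119735208-119822808. Its 3 probes measured on both arrays stood at -2.39, -1.79 and 3.36 on the control array and at -0.32, 0.30 and 4.55 on the DKO-labelled array, differences of 2.07, 2.09 and 1.19. The probe at the highest level differed least. The F strand of chr1:186560855-186563399 was read evenly, with levels of -4.39, -3.99 and -3.08 on the control array against -2.52, -2.01 and -1.06, so that the 3 differences lay between 1.87 and 2.02. All 5 probes on the F strand of chr10:69669025-69686275 went from between -1.15 and -0.47 to between 0.26 and 1.17, with differences of 1.41 to 1.64. The only measured probe of its R strand had a difference of 1.03.

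By number of probes, the largest region in which every measured probe was higher by 2-fold or more was on chromosome 1. Between chr1:175653557-175717250 in 5 interval strands of 2 loci, 18 of 18 measured probes were higher by 2-fold or more, with a median difference of 1.37 and a range of 1.04 to 2.10. On the R strand of chr1:175705225-175717250 the 5 probes stood at -1.99, -1.49, -0.82, -0.15 and 2.65 on the control array and at -0.68, -0.04, 0.51, 1.04 and 3.84 on the DKO-labelled array. No probe of this interval strand crossed another between the arrays. A second stretch, chr12:110738120-110988678, held 47 measured probes in 16 interval strands of 4 loci. All 47 lay above 0 and 24 were higher by 2-fold or more, with a median of 1.02, a lowest value of 0.05 and a highest of 2.01. In it, the F strand of chr12:110842149-110845695 was at -1.82, -1.66 and -0.49 on the control array and at -0.47, -0.46 and 1.11 on the DKO-labelled array.

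Elsewhere on chromosome 12, chr12:74135916-74142780 was higher on both strands, from levels not far above the detection floor on the control array. Its 4 measured F probes had differences of 1.05 to 1.78, and 6 more F probes were above background on neither array. On the R strand the levels were -4.27, -4.17, -4.11 and -2.91 on the control array against -2.27, -1.81, -2.22 and -1.59, differences of 1.32 to 2.36. The fifth R probe had signal above background on the DKO-labelled array alone.

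**Figure D4:**
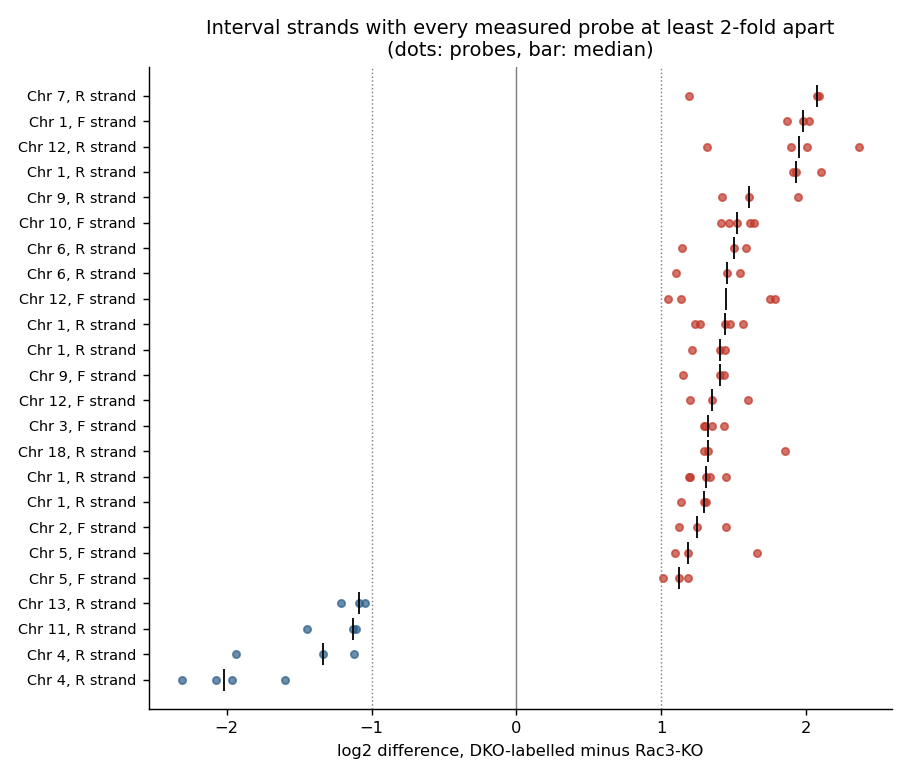
Differences (x axis, log2, DKO-labelled minus Rac3-KO) of every measured probe (dots) and their median (bar) for the 24 interval strands with at least 3 measured probes that were all at least 2-fold apart in 1 direction under scaling to the 75th percentile. The 20 higher interval strands, with medians from 1.12 to 2.07, and the 4 lower ones, with medians from -2.02 to -1.09, are ordered by median and labelled by chromosome and strand (y axis); dotted lines mark 2-fold.

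The 4 interval strands that were lower throughout all lay on the R strand. The R strand of chr4:124127144-124334840 had the largest difference. Its 4 measured probes stood between -1.39 and 0.06 on the control array and between -2.99 and -1.90 on the DKO-labelled array, with differences of -2.31 to -1.59. The fifth R probe, at a level of -1.97 on the control array, was not above background on the DKO-labelled array. The R strand of chr4:40202350-40205120 stood at -0.90, -0.87 and -0.69 against -2.84, -2.20 and -1.81. The R strand of chr11:112905201-113062945 had differences of -1.45, -1.13 and -1.11. For the R strand of chr13:28947034-28949166 they were -1.21, -1.09 and -1.05.

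The single probes farthest apart were in many cases without a second measured probe, or were not matched by one. The 10 with the largest positive difference were 4.75-fold to 10.9-fold higher, and 8 of them were the only probe of their interval strand measured on both arrays. For 3 of these 8, another probe of the strand had signal on the DKO-labelled array alone. On the F strand of chr1:20669157-20672643 both other probes did, at levels of -2.58 and -1.95. With normexp 7 of the 10 moved by over 1.5-fold, and the differences ran from 1.26 to 2.95. The probe of the R strand of chr3:148884650-148888709 went from -2.30 to 1.15, a difference of 3.45. That of the F strand of chr8:124697835-124699013 went from -3.58 to -0.44, a difference of 3.14. The F strand of chr11:53592946-53637922 had 2 measured probes, which differed from each other. The first went from -0.68 to 2.15, a difference of 2.83, and the second from -4.07 to -3.72, a difference of 0.35. The other probes among the 10 belonged to the R strands of chr1:85150625-85185800, chr8:126396600-126407275, chr12:74135916-74142780, chr14:43929100-43945100 and chr14:106250821-106261843 and to the F strands of chr1:20669157-20672643 and chr6:30127175-30128051, with differences between 2.25 and 2.60.

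The 10 with the largest negative difference were 6.17-fold to 16.5-fold lower. With normexp 9 of them moved by over 1.5-fold and the differences ran from -3.82 to -1.18, so these folds depend on the background correction. For 6 of them another measured probe of the same interval strand lay above 0. The largest was on the R strand of chr12:85196395-85262884, where 1 probe went from 2.91 to -1.14, a difference of -4.05, while its other probes had differences of 0.20 and 0.63. On the F strand of chr17:12965849-12968519 1 probe went from -0.80 to -3.58, a difference of -2.78, and the others had 0.51 and 0.64. On the F strand of chr2:143991240-143991597 the values were -2.88 against 0.30 and 0.41. The probe of the F strand of chr4:155560050-155570900 had a difference of -3.48 and its neighbour of 0.96. On the R strand of chr14:65431652-65437902 1 of 9 measured probes had -2.66 while their median was -0.06, and on that of chr10:96082444-96096696 1 of 4 had -2.62 with a median of -0.75. For these 6 the value belongs to a single probe and not to the whole interval.

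A locus on chromosome 9 was different in that 3 of the 10 probes came from it. Both measured F probes of chr9:78107225-78118850 stood at 0.79 and 0.44 on the control array and at -2.41 and -2.50 on the DKO-labelled array, differences of -3.21 and -2.94. The single F probe of the overlapping chr9:78104935-78116974 went from 0.79 to -2.28, a difference of -3.07. The other 3 F probes of the first interval were above background on neither array. The remaining probe of the 10 lay in an F interval of chromosome 18 and had a difference of -3.42, as the only measured probe there.

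Probes above background on a single array have a bound in place of a difference. On the array that lacked signal, the probe was given its measured level or the detection floor, whichever was larger. Of the 339 probes detected on the DKO-labelled array only, 260 (76.7%) were higher by 2-fold or more there, beside 79.1% of all 867 such probes of the array. Of the 1098 detected on the control array only, 162 (14.8%) were lower by 2-fold or more on the DKO-labelled array, beside 17.9% of 3137. Both shares lie near those of the whole array. The unequal floors, -4.91 and -4.14, enter these counts directly, and all 339 bounds of the first kind are above 1-fold. The F strand of chr3:145390505-145398253 had a probe at a level of -1.34 on the DKO-labelled array that was at least 11.9-fold higher there. A probe of the R strand of chr8:126396600-126407275, at -1.53, was 10.04-fold higher, next to the probe of that interval strand named above. Its control level of -4.86 lay just above the floor, so 10.04 is the measured fold, from a control signal not above background. In the R strand of chr6:121035524-121061074 a probe at -1.83 was at least 8.48-fold higher. In the other direction, a probe on the F strand of chr1:23334791-23335367 stood at -0.04 on the control array and had a bound of at least 17.2-fold lower. Probes on the R strand of chr4:140609589-140614789, at -0.15, and on the F strand of chr11:69193341-69193717, at -0.17, were lower there too, the first by at least 15.9-fold and the second by at least 15.7-fold.

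A small number of intervals gave very high signal on both arrays. The 10 probes of highest mean level had differences from 0.02 to 1.06; 7 of them lay above the interval median of 0.34, and 1 was at least 2-fold apart. The R strand of chr19:5801802-5802597 had 3 probes at 5.65, 6.62 and 7.96 on the control array and 6.10, 7.14 and 8.65 on the DKO-labelled array, with differences of 0.45 to 0.70. The F strand of chr17:39982023-39983277 gave a similar picture, with 3 probes at 5.79, 5.98 and 7.64 against 6.26, 6.58 and 8.32. The R strand of chr17:17481706-17482457 had differences of 0.04, 0.05 and 0.08. Elsewhere a single bright probe stood among dim ones. In chr14:78924115-78938125 1 F probe had a level of 7.61 on the control array, another -3.72, and the other 5 were above background on neither array. Within chr6:83368261-83407280 the F probe at 6.96 had a difference of 0.56 and that at 2.27 had -0.73. Both strands of chr12:73838608-73862621 held 1 such probe, at 6.75 (F) and 7.003 (R) on the control array, and the F probe was the 1 at least 2-fold apart, with a difference of 1.06. The single probes of chr11:22681800-22707775 (R, 8.21 and 8.29) and chr7:108209996-108216032 (R, 7.87 and 7.89), each alone on its interval strand, were nearly level between the arrays. The F strand of chr6:116092274-116144199 had 3 measured probes, at 0.69, 4.25 and 7.20 on the control array, with differences of 0.51 to 0.68.

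The 1042 intervals with probes on both strands show how often signal came from 1 strand. On the control array 127 had no probe above background (12.2%), 410 had 1 strand (39.3%) and 505 both strands (48.5%). On the DKO-labelled array the numbers were 171, 437 and 434. Of the 410 with 1 strand on the control array, 317 had the same strand alone on the DKO-labelled array and 6 the other strand alone; 47 had none and 40 had both. The labelling copies RNA through cDNA, and whether it keeps strand strictly was not tested here, so signal on both strands does not by itself show transcription of both.

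In 385 intervals both strands were measured on both arrays. The differences of the F and R strands followed each other loosely, with Pearson's r of 0.18 and Spearman's rho of 0.16 across intervals that share the same arrays and in part overlap. The median gap between the strands was 0.43, and 57 intervals (14.8%) had a gap of at least 1. Both strands lay above 0 in 257 intervals and both below in 16, and the sign was opposite in 112, relative to the 75th percentile. Both strands were higher by 2-fold or more in 8 intervals, among them chr2:108456668-108532418 with 1.25 on F and 1.83 on R, and lower by 2-fold or more in 0. Counted singly, the F strand was higher by 2-fold or more in 53 of the 385 and the R strand in 40. The F strand was lower by 2-fold or more in 6 and the R strand in 4. Whether 8 and 0 go beyond what these single counts give was not tested.

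**Figure D5:**
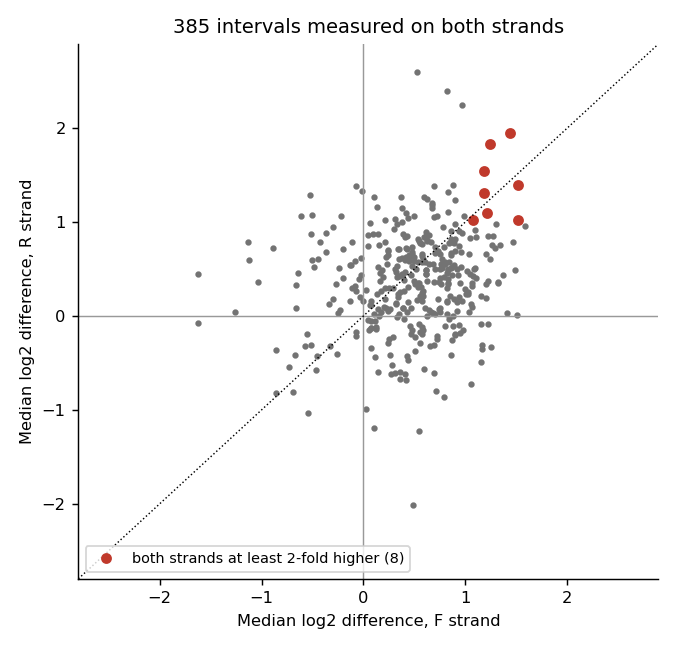
Median log2 difference (DKO-labelled minus Rac3-KO) on the F strand (x axis) against the R strand (y axis) for the 385 intervals measured on both strands; the dotted line marks equality. Most points lie at the upper right (257 with both strands above 0 under scaling to the 75th percentile), 8 in red have both higher by 2-fold or more, and the lowest point is at 0.48 on F and -2.02 on R.

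In 4 of the 5 intervals with the widest gap the strand medians over measured probes had opposite signs, and in the other both lay above 0. The widest was chr4:124127144-124334840, named above for its R strand: the 2 measured F probes had differences of 0.40 and 0.57, against a median of -2.02 over 4 R probes. In chr1:163508244-163586072 all 5 F probes lay below 0, from -0.74 to -0.05, while the 3 measured R probes lay between 1.14 and 1.31. In chr1:162965309-162970704 the 2 F probes had -1.22 and -1.06 and the 3 measured R probes 0.24, 0.79 and 0.81. Of its other R probes, those at levels of -3.58 and -4.26 on the control array had no signal above background on the other array. The gap rested on 1 measured probe a strand in chr2:176784125-177183100, with -1.63 on F and 0.44 on R, and in chr1:85150625-85185800, with 0.53 and 2.60. Another F probe of chr1:85150625-85185800 stood at -2.65 on the control array and had no signal above background on the DKO-labelled array, opposite in direction to the 0.53.

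Neighbouring loci shared little of their differences. Between the medians of neighbouring measured loci, Pearson's r was 0.24 over 104 pairs with a gap of up to 20 kb, 0.16 over 131 pairs from 20 to 100 kb, 0.06 over 296 pairs from 100 to 500 kb, and 0.03 over 778 pairs farther apart. These are descriptions across pairs from the same 2 arrays. Chains of loci with gaps of at most 100 kb held at least 2 loci with a median higher by 2-fold or more in 6 cases and lower by 2-fold or more in 0, under scaling to the 75th percentile. Besides the stretches on chromosomes 1 and 12, these included chr9:96632664-96683617, with 6 of 7 measured probes higher by 2-fold or more and a median of 1.42, and chr19:4991356-5001810, with 2 of 4 and a median of 1.04. The others, chr4:141527564-141574868 and chr15:90074814-90184564, rested on 2 probes each.

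Chains with at least 10 measured probes, called regions here, numbered 112. The median over their probes was above 0 in 83 and below in 29, relative to the 75th percentile; it was at least 1 in 3, which are the regions of chromosomes 1 and 12 above, and at most -1 in 0. The lowest median was that of chr5:137392195-137426421, at -0.99 over 12 probes. There 6 probes were lower by 2-fold or more and 1 higher by 2-fold or more, and the range ran from -1.56 to 1.23, so its probes did not share a direction. Next came chr10:96082444-96103867, at -0.71 over 10 probes of which 2 lay above 0, and chr14:73729977-73751877, at -0.69 over 11 of which 3 did. The region chr4:129376440-129515290 held 20 measured probes with a median of -0.60, of which 4 lay above 0 and 2 were lower by 2-fold or more. At the other end, a region of chromosome 18 had a median of 0.997 over 13 probes, 11 of them above 0 and 6 higher by 2-fold or more. In chr14:26834450-26847000 and chr5:31856417-31916414 alike, 11 of 11 probes lay above 0 and 5 were higher by 2-fold or more, with a median of 0.94 in each.

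Long noncoding RNAs that carry a gene symbol were examined from a list. Of 47 listed, 26 had a probe, all of them measured on both arrays; 3 were higher by 2-fold or more (11.5% of 26, beside 8.75% of the array) and 2 lower by 2-fold or more (7.69%, beside 5.24%), with a median of 0.21 that would lie below 0 with the spike-ins. Dnm3os, the host transcript of a microRNA cluster antisense to Dnm3, went from -1.18 to 0.59, a difference of 1.77, while the other measured probes of the gene reached down to -0.65. Mir22hg, the host gene of a microRNA, went from -1.43 to 0.10, a difference of 1.53. Mirg, a noncoding RNA of the imprinted Dlk1-Dio3 region that carries microRNAs, went from 3.15 to 4.22, a difference of 1.07. Malat1, a nuclear RNA of speckles, went from 3.55 to 2.38, a difference of -1.18, and Crnde from 0.56 to -0.45, a difference of -1.02. Malat1, Crnde, Mirg and Mir22hg each had a single probe matched by gene name. Whether any interval probes read the same transcripts as these named RNAs was not examined. Of the others at high level, Meg3, an imprinted noncoding RNA of the same region as Mirg, had 0.65 with its 3 probes between 0.11 and 0.65, Snhg6 0.34, Norad -0.05, Snhg3 0.00, Snhg12 -0.54 and Neat1, which builds nuclear paraspeckles, 0.24.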

How the data were processed

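Cy3-labelled cRNA from total RNA was hybridised to 1 array for each genotype. Spot intensity, the unit of the deposited scanner files, was made by Feature Extraction, whose release is 10.10.1.1 in the file headers and 9.1 in the submitters' processing notes. Both arrays share a slide and a scan, per the file headers. The authors also deposited log2 values. For 100% of single-spot probes these match the processed signal on a log2 scale less 1 constant per array, within 0.001. Their column medians are -3.72 and -3.62, so scale and centring are known and 1-colour levels have no direction to settle. Deposited flags mark outlier spots (155 and 190, left out) and signals well above background. Levels are log2 processed signal minus each array's 75th percentile over non-control probes. Coding and noncoding gene names came from RefSeq accessions in a GRCm38.p6 table, used for names only; interval coordinates are those of the files (mm9). Distances to named genes were not computed, because probe positions in mm9 were not used here. Overlapping intervals were merged into loci, and loci at most 100 kb apart into chains. A gene was represented by its probe of highest mean level.

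With 1 array per group no test was run; counts use 2-fold. The members, lists and rules were chosen with earlier results of these data known. Named probes are the 10 farthest apart in each direction beyond the 95% multiple of the software's error, 3 bounds in each direction, the 10 brightest, the 5 widest strand gaps, and named noncoding RNAs at least 2-fold apart with 6 others of high level; interval strands with all probes 2-fold apart, chains and regions of at least 10 probes were chosen after their values were seen. Alternatives were other scalings (median, detected probes, quantile, loess, spike-ins), normexp with an offset of 50 on the median spot and background signals (mean spot signals were not used here), the deposited table, detection filters, thresholds of 1.5-fold and 3-fold, and 1 probe per interval strand or locus. R 4.3.3, limma 3.58.1, Python 3.11.15, numpy 2.4.6 and pandas 2.3.3 were used, and counts and level matching were tested on simulated data.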

Additional observations from a re-analysis of the deposited data

How the results depend on the processing

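The level-matched gap between interval and coding probes stayed above 0 in all 14 alternatives, from 0.12 without a detection filter to 0.41 with 1 probe per locus (an alternative added after seeing the data). Scaling to the median, to detected probes or to the spike-ins moves all differences by 1 constant, as does the deposited table. Those alternatives could not test the gap. The interval median moved by less than 0.23 from 0.34 in 12 of 14. That bound is the median software error of a single probe's difference and not the error of a median over 4522 probes. Within it, the interval median was 0.18 after loess, 0.25 with scaling to the median and 0.48 with normexp. The interval median was 0.61 without a detection filter and reversed to -1.72 with the spike-ins (added after seeing the data). Interval probes at least 2-fold higher and lower numbered 577 and 145. They were 285 and 39 with normexp, 2448 and 871 without a filter, 346 and 61 with 1 probe per interval strand, 221 and 27 with 1 probe per locus, 2 and 4035 with the spike-ins, 1533 and 420 at 1.5-fold, and 79 and 44 at 3-fold. A stricter filter left 89 lower. The share of interval probes above background was 28.4% and 22.9% on the control and DKO-labelled arrays with the stricter filter, where coding probes had 71.1% and 66.4%, and 61.0% and 55.0% when the brightest probe stood for an interval strand. Intervals with 1 strand above background were 44.4% and 46.4% under the stricter filter, against 39.3% and 41.9%. With normexp 16 of the 30 named probes moved by over 1.5-fold, 27 kept their sign, and 20 of 21 stayed at least 2-fold apart. The cause of these changes was not tested, other than that fewer or more probes enter by construction. Leaving out intervals that hold a named probe and the alternatives on neighbouring genes were not run, for want of mm9 probe positions. No paired analysis was possible because each genotype has 1 array. With medians this dim, signal over background limits what the interval probes can show.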

Other observations

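Interval probes of the X chromosome, left out above, numbered 577, of which 35.9% (control array) and 27.7% (DKO-labelled array) were well above background. The 151 measured on both arrays had a median difference of 0.22, with 11.3% at least 2-fold higher and 3.31% lower, relative to the 75th percentile. The probe with the largest positive difference, on the F strand of chrX:157038750-157039018, went from -0.85 to 2.12. Each strand of chrX:50400250-50410825 held a probe that was higher, with differences of 1.78 on F and 1.72 on R, and a probe on the R strand of chrX:47893703-47996700 went from -0.87 to -3.16.

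The 3 autosomal intervals without a strand suffix behaved unlike each other. All 5 probes of chr17:12941161-12944859 were measured on both arrays, with differences from -0.13 to 0.01. A probe of chr3:34856791-34869544 was above background on the control array only, at -3.37, and none of the 5 probes of chr6:52032838-52033444 was above background on either array.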
